A study of Homo sapiens with 4 samples.

Results

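The NR4A orphan nuclear receptors are a family of 3 genes, NR4A1, NR4A2 and NR4A3, and these 3 were examined among the 58735 Ensembl genes measured in HCT116 cells, a human colorectal carcinoma line. RNA was sequenced 48 h after transfection in 4 libraries. Of these, 2 received control siRNA and 2 received siRNA targeting KIF26B, a kinesin family member, and each group is numbered as replicates 1 and 2. The labels do not say which KIF26B siRNA each library received, nor whether replicates came from separate cultures, so that the spread between replicates may be technical. The column headers give the KIF26B siRNA libraries different knockdown numbers, 1 and 2, and the protocol speaks of siRNAs in the plural, so their spread may also hold a difference between siRNAs. The family was chosen by its values in these libraries, because NR4A2 was higher in both KIF26B siRNA libraries than in both controls. Its differences between the groups are therefore given as a description, with no test.

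NR4A proteins are transcription factors of the nuclear receptor superfamily. Their ligand-binding pocket is filled with bulky side chains, so they act without a classical hormone ligand, and their activity is set mainly by how much protein is made. They behave as immediate early genes, induced within minutes to hours by cAMP, calcium, growth factors and stress. They bind the monomer site known as NBRE, and NR4A1 and NR4A2 also bind DNA together with retinoid X receptors (RXR). NR4A1 (Nur77) is known for roles in T cells and apoptosis, NR4A2 (Nurr1) for the development of dopaminergic neurons, and NR4A3 (NOR1) for its fusion in a sarcoma. In colorectal cancer cells, prostaglandin E2 is a known inducer of NR4A2.

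The values are FPKM, that is, fragments divided by exon length and by the size of the library, from which whole reads were recovered, and 95% Poisson intervals on those reads cover counting error only. The libraries held 19611364 to 25426117 recovered reads. The targeted gene was read first. KIF26B was at 0.110 and 0.205 FPKM in the control libraries, from 31 and 73 reads. It was at 0.1397 FPKM (43 reads) in the library labelled KIF26B siRNA replicate 1, between both controls, and at 0.0307 FPKM (8 reads) in replicate 2. The 95% intervals of the controls, 0.0745 to 0.156 and 0.161 to 0.258 FPKM, did not overlap each other. That of replicate 1, 0.101 to 0.188 FPKM, overlapped both, and that of replicate 2, 0.0133 to 0.0606 FPKM, overlapped neither. The label of replicate 1 was thus not borne out by its KIF26B level, though so few reads cannot show whether KIF26B was lowered there. The NR4A differences and the list medians are given with and without replicate 1. The epithelial markers EPCAM, KRT8, KRT18, KRT19 and CDH1 summed to 1560 to 1692 FPKM. Of these 5, KRT8, KRT18 and CDH1 were below both controls in both KIF26B siRNA libraries, KRT19 was above them and EPCAM overlapped (log2 fold changes −0.43, −0.51, −0.33, 0.14 and 0.08), and their part in the NR4A values was not tested. Of the other markers, leukocyte genes summed to 0.364 to 0.618 FPKM, the 4 matched endothelial genes to 0.209 to 0.480 FPKM and dopaminergic neuron genes to 0.316 to 0.565 FPKM. The fibroblast list was at 4.76 to 8.71 FPKM, nearly all of it from COL1A1, whereas COL1A2, COL3A1, DCN and LUM were at or near 0.

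NR4A2 (ENSG00000153234) lies on the minus strand of chromosome 2 of GRCh37, from 157180949 to 157198860. It was at 5.39 FPKM (420 reads, interval 4.89 to 5.94) and 5.04 FPKM (493 reads, 4.60 to 5.50) in the control libraries. In the KIF26B siRNA libraries it was at 12.9 FPKM (1092 reads, 12.1 to 13.7) and 13.0 FPKM (935 reads, 12.2 to 13.9). The groups did not overlap, and within each group the intervals did. The group means were 5.22 ± 0.25 (SD, n = 2) with control siRNA and 13.0 ± 0.11 FPKM (SD, n = 2) with KIF26B siRNA, a ratio of 2.49, or a difference of 1.17 on the scale of log2(FPKM + 1). Each KIF26B siRNA library alone gave nearly the same ratio to the control mean, 2.47 for replicate 1 and 2.50 for replicate 2. The library in which KIF26B itself lay between both controls therefore held as much NR4A2 as the other one. In bulk RNA, more expressing cells and more RNA per cell cannot be told apart.

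**Figure D1:**
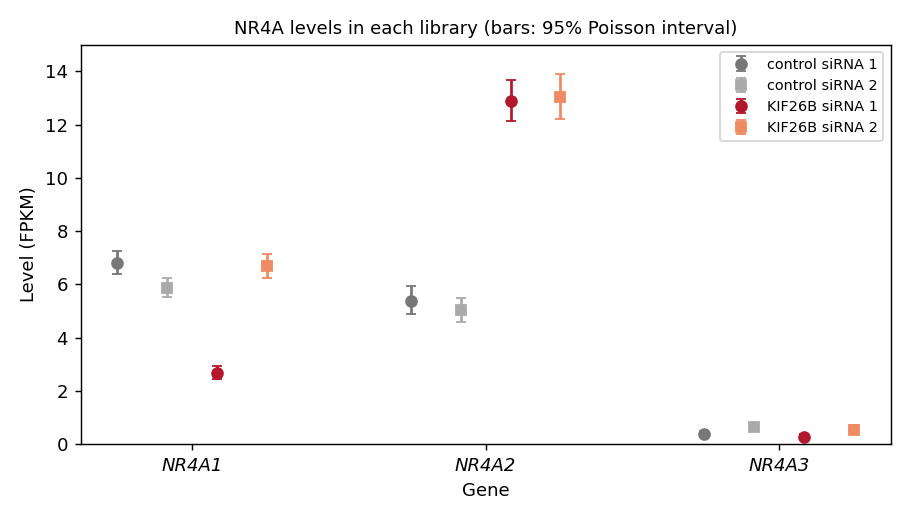
Levels of NR4A1, NR4A2 and NR4A3 in FPKM (vertical axis) in each of the 4 libraries, with bars for the 95% Poisson interval of the reads. NR4A2 stood at 12.9 and 13.0 FPKM in the KIF26B siRNA libraries against 5.39 and 5.04 in the controls, and NR4A1 was low in KIF26B siRNA replicate 1 alone.

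NR4A1 (ENSG00000123358) lies on the plus strand of chromosome 12, from 52416616 to 52453291. It was at 6.80 FPKM (973 reads, interval 6.38 to 7.24) and 5.88 FPKM (1058 reads, 5.53 to 6.24) in the control libraries. In KIF26B siRNA replicate 1 it was at 2.68 FPKM (418 reads, 2.43 to 2.95), and in replicate 2 at 6.68 FPKM (880 reads, 6.24 to 7.13). Replicate 1 was thus below every other library and replicate 2 lay between both controls, so that the groups overlapped. The group means were 6.34 ± 0.65 and 4.68 ± 2.82 FPKM (SD, n = 2 each), a difference of −0.46 on the log2(FPKM + 1) scale that was smaller than the spread between the KIF26B siRNA libraries. Without KIF26B siRNA replicate 1 the difference was 0.07, and without replicate 2 it was −0.99. The KIF26B siRNA libraries differed 2.49-fold in NR4A1 and 1.01-fold in NR4A2. A gap on this scale at least as wide as that of NR4A1 was seen between them in 4.54% of the 14523 genes averaging 1 FPKM or more, and one at least as wide as that of NR4A2 in 96.4%.

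NR4A3 (ENSG00000119508) lies on the plus strand of chromosome 9, from 102584137 to 102629173, and was barely expressed. It was at 0.379 FPKM (47 reads, interval 0.279 to 0.504) and 0.635 FPKM (99 reads, 0.516 to 0.774) in the control libraries. In the KIF26B siRNA libraries it was at 0.289 FPKM (39 reads, 0.206 to 0.395) and 0.552 FPKM (63 reads, 0.424 to 0.706). The group means were 0.507 ± 0.18 and 0.421 ± 0.19 FPKM (SD, n = 2 each), which differed by less than the spread within either group. The control libraries alone differed 1.68-fold, with intervals that did not overlap. NR4A3 lay below the mean of 1 FPKM required for testing, which NR4A1 and NR4A2 passed.

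The order of the members changed between the groups. In the control libraries NR4A1 was the highest, at 54.1% and 50.9% of the summed FPKM of the family, and NR4A2 followed with 42.9% and 43.6%. Both NR4A1 values lay above both NR4A2 values, though the interval of control replicate 2 for NR4A1 reached into that of control replicate 1 for NR4A2. In the KIF26B siRNA libraries NR4A2 was the highest, at 81.3% and 64.3%, followed by NR4A1 with 16.9% and 32.9%. NR4A3 was the lowest in every library, at 1.82% to 5.50%. The summed level of the family was 12.6 and 11.6 FPKM with control siRNA, against 15.9 and 20.3 FPKM with KIF26B siRNA. FPKM divides by the length of all annotated exons of a gene, which was 7295 bases for NR4A1 and 3967 bases for NR4A2 in the deposited values (4111 bases for NR4A2 in the annotation used here). Scaled to library size alone, as reads per 1e6 fragments (RPM), NR4A1 was at 49.6 and 42.9 RPM in control libraries against 21.4 and 19.98 RPM for NR4A2. In KIF26B siRNA replicate 1 NR4A2 exceeded NR4A1 on this scale too (51.1 against 19.6 RPM), whereas in replicate 2 the genes were at 51.8 and 48.7 RPM with overlapping intervals.

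Overlapping and neighbouring genes were read because the counting is not known to have used the strand. NR4A1AS, an antisense long noncoding RNA, shares 754 exon bases with NR4A1 and had 1 to 4 reads per library. STX17-DT spans NR4A3 on the opposite strand but shares 0 exon bases with it. No other gene of the files overlapped NR4A2 in the annotation. The protein-coding genes next to NR4A2 are KCNJ3, which had at most 0.0218 FPKM, and GPD2, the mitochondrial glycerol-3-phosphate dehydrogenase, 92942 bases away. GPD2 was at 17.7 and 17.2 FPKM with control siRNA, against 18.8 and 13.95 FPKM with KIF26B siRNA, overlapping between the groups (log2 fold change −0.10, adjusted p = 0.8 from limma). Next to NR4A1, the autophagy gene ATG101 stayed at 8.93 to 11.2 FPKM and TAMALIN at 0.196 to 0.458 FPKM. Next to NR4A3, STX17 stayed at 4.85 to 5.24 FPKM and SEC61B, a subunit of the translocon, at 40.2 to 58.1 FPKM.

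The 300-base promoter windows in the RefSeq table (GRCh38.p14, 250 bases before to 50 after a start) were searched on both strands for the cAMP response element TGACGTCA, its half-site TGACG, the NBRE AAAGGTCA and the CArG box. The half-site is contained in the full element. NR4A3 and NR4A1 had windows in the table, 1 and 2 of them, and NR4A2 had none. The NR4A3 window held 4 half-sites, and neither NR4A1 window held any. The annotation lists 22 transcripts of NR4A1, and any start outside its 2 windows was not searched. The full element, the NBRE and the CArG box were in none of the 3 windows. Over all 35116 windows, 24.6% held the half-site, 1.85% the full element, 1.22% the NBRE and 1.29% the CArG box. The stretch of the NR4A3 window that carries the half-sites is shown because cAMP is a known input of this family, with the half-sites in capitals on the plus strand of chr9:99821771-99821869 (GRCh38.p14).
NR4A3: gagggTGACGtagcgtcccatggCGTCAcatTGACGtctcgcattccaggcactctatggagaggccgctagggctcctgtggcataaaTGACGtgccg

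These letters are a description of the window and say nothing about binding. NR4A3, whose window holds them, was the member with the lowest level.

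Against the rest of the superfamily, NR4A2 held a higher place with KIF26B siRNA. By FPKM it was 17th of 48 nuclear receptors in both control libraries and 9th in both KIF26B siRNA libraries. NR4A1 was 15th and 16th in control and 22nd and 16th in KIF26B siRNA libraries, and NR4A3 26th to 31st. Among the 24 receptors with a mean of at least 1 FPKM, NR4A2 had the highest and NR4A1 the lowest log2 difference between the groups. NR4A2 was 95th from the top among all 14523 genes, and 241st of 14504 without KIF26B siRNA replicate 1. These ranks rest on the contrast that chose the family.

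The other 45 nuclear receptors and the gene lists that follow were compared with limma on log2(FPKM + 1). A gene counts as past the thresholds, which are those of the Methods, where its log2 fold change lies beyond 1 in either direction and its unadjusted P is under 0.05. Of all 14523 genes, 118 (0.813%) were past them upward and 88 (0.606%) downward, whereas 0 had an adjusted p below 0.05 in limma, the smallest being 0.242, and 2385 had an unadjusted P below 0.05. At an unadjusted P below 0.05 alone, 7.74% were higher and 8.68% lower. Both KIF26B siRNA libraries lay above both controls in 24.9% of genes and below both in 27.8%. Over all genes the median change was −0.01. With limma-voom on the recovered reads, 0 genes had an adjusted p below 0.05 and 3045 an unadjusted P below 0.05. An exact permutation test of a single gene cannot go below p = 0.333 here and was not run.

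Of the 45 other receptors, 22 were tested and 0 were past the thresholds in either direction, with a median log2 fold change of 0.20. At an unadjusted P below 0.05 alone, 4 were higher and 0 lower, and 9 did not overlap upward against 2 downward. Over all genes tested, 7.74% were higher and 8.68% lower at that P, and 24.9% did not overlap upward against 27.8% downward. The 4, and the genes given below for an unadjusted P alone, are named after their values were seen. RARG, a retinoic acid receptor, was at 7.36 and 7.06 FPKM with control siRNA, against 13.0 and 13.2 FPKM with KIF26B siRNA (log2 fold change 0.78, standard error 0.11, adjusted p = 0.242 from limma). As with NR4A2, its KIF26B siRNA libraries lay close together. NR2F1 (COUP-TFI) was at 8.04 and 8.42 FPKM with control siRNA, against 18.2 and 12.1 FPKM with KIF26B siRNA. RXRB, a dimer partner of NR4A1 and NR4A2, was at 12.6 and 12.7 FPKM with control siRNA, against 17.2 and 28.5 FPKM with KIF26B siRNA. ESRRA, an orphan receptor of energy metabolism, was at 23.1 and 22.1 FPKM with control siRNA, against 30.6 and 29.9 FPKM with KIF26B siRNA. The adjusted p from limma was 0.27, 0.301 and 0.258 for these 3. The most abundant receptors in the control libraries, NR2F2 (COUP-TFII) and NR2F6, were at 31.3 to 41.0 FPKM and 26.1 to 32.95 FPKM (adjusted p = 0.752 and 0.481 from limma). Of the 45, 8 had no reads in any library, among them RXRG and the progesterone receptor PGR.

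The inputs that induce NR4A genes were followed next. Of 31 genes of cAMP, protein kinase A and CREB signaling, 23 were tested, 1 was past the thresholds upward and 0 downward, with a median log2 fold change of −0.05. The 1 gene was PDE4B, a phosphodiesterase that degrades cAMP and is itself induced by it. Its promoter windows in the RefSeq table held 0 half-sites of the cAMP response element, which 24.6% of all windows held. This is a description and says nothing about binding. PDE4B was at 4.24 and 4.02 FPKM with control siRNA, against 15.4 and 10.3 FPKM with KIF26B siRNA (720, 858, 2850 and 1613 reads). Both KIF26B siRNA libraries were above both controls, differing by 1.41 on the log2 scale (standard error 0.22, adjusted p = 0.242 from limma). At an unadjusted P below 0.05 alone, ATF1 and ADCY3 were also higher, with log2 fold changes of 0.50 and 0.36, and CREB1 and PRKAR2B were lower, with −0.38 and −0.43. With PDE4B, 3 of the 23 were higher and 2 lower, beside 7.74% and 8.68% of all genes tested at that P. Past the thresholds upward were 0.813% of all genes tested. ATF1 and CREB1 encode related factors that bind the cAMP response element, ADCY3 an adenylyl cyclase and PRKAR2B a regulatory subunit of protein kinase A. The adjusted p from limma was 0.248, 0.29, 0.304 and 0.266 for ATF1, ADCY3, CREB1 and PRKAR2B. The most abundant genes of the list were PRKAR1A, at 48.9 to 50.1 FPKM, and GNAS, at 37.6 to 46.4 FPKM (adjusted p = 0.896 and 0.447 from limma).

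Calcium, MEF2 and MAP kinase inputs, which act on the NR4A1 promoter in T cells, were covered by 31 genes, of which 29 were tested and 0 were past the thresholds in either direction (median log2 fold change −0.07). At an unadjusted P below 0.05 alone, 0 were higher and 4 lower, beside 7.74% and 8.68% of all genes tested. Among the 4 were MEF2A, a transcription factor, PPP3R1, the regulatory subunit of calcineurin, and NFATC2, a calcineurin target. Their log2 fold changes were −0.50, −0.61 and −0.43, with adjusted p of 0.245, 0.272 and 0.287 from limma. PPP3CA, the catalytic subunit of calcineurin, was at 26.5 to 32.7 FPKM and RPS6KA4, a kinase of the MAP kinase pathway, at 25.6 to 29.0 FPKM (adjusted p = 0.351 and 0.612 from limma).

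Of 12 genes for the synthesis, transport and receptors of prostaglandin E2, 6 were tested, and by limma 0 had an unadjusted P below 0.05 in either direction (median log2 fold change −0.14). PTGS2 (COX-2), the inducible enzyme of the pathway, was below the filter, at 0.309 and 0.608 FPKM with control siRNA, against 0.267 and 0.147 FPKM with KIF26B siRNA (32, 79, 30 and 14 reads). The receptor PTGER4 was at 1.16 and 1.44 FPKM with control siRNA, against 0.638 and 1.33 FPKM with KIF26B siRNA, and the receptor PTGER2 at 0.157 to 0.433 FPKM. The most abundant genes, PTGES3 and PTGES2, were at 110.9 to 129.4 FPKM and 37.1 to 41.5 FPKM (adjusted p = 0.808 and 0.848 from limma).

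The immediate early and CREB-responsive genes are the group to which the NR4A genes belong by their mode of induction. Of 30 such genes without the NR4A members, 24 were tested, 1 was past the thresholds upward, again PDE4B, and 0 downward, with a median log2 fold change of −0.09. TRIB1, which encodes a pseudokinase, was at 85.4 and 88.0 FPKM with control siRNA, against 130.8 and 148.3 FPKM with KIF26B siRNA (log2 fold change 0.68, adjusted p = 0.242 from limma). CSRNP1 was at 15.7 and 16.5 FPKM with control siRNA, against 12.2 and 9.40 FPKM with KIF26B siRNA (log2 fold change −0.55, adjusted p = 0.274 from limma). These 2 were the other genes of the list at an unadjusted P below 0.05. With PDE4B, 2 of the 24 were thus higher and 1 lower. The shares over all genes tested were 7.74% and 8.68% at that P, and 0.813% past the thresholds upward. FOS was at 3.28 to 4.56 FPKM, and the most abundant members IER3 and JUNB were at 265.9 to 327.2 and 90.4 to 133.1 FPKM (adjusted p = 0.307, 0.831 and 0.312 from limma). FOS and JUNB lay below both controls in both KIF26B siRNA libraries, and IER3 overlapped. Among the 24 tested, 4 did not overlap upward and 7 downward, beside 24.9% and 27.8% of all genes tested.

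The KIF26B siRNA libraries went apart in several of these genes, as they did in NR4A1, and the genes are named after their values were seen. EGR1 was at 74.1 and 78.6 FPKM in control, 79.3 FPKM in KIF26B siRNA replicate 1 and 18.5 FPKM in replicate 2, so that it was low in the library in which NR4A1 was not. PER1, a clock gene with cAMP response elements, was at 16.6 and 16.3 FPKM in control, 8.72 FPKM in replicate 1 and 46.7 FPKM in replicate 2. BTG2 was at 10.6 and 11.8 FPKM in control, 31.0 FPKM in replicate 1 and 13.0 FPKM in replicate 2. KLF2 and KLF4, like NR4A1, were lower in replicate 1 than in every other library, with KLF2 at 9.19 against 16.2 to 19.4 FPKM and KLF4 at 11.5 against 18.2 to 31.6 FPKM. Of the 24 genes tested, 11 (45.8%) had their lowest value in replicate 1, as NR4A1 did, and 9 (37.5%) in replicate 2, beside 31.4% and 31.5% of all genes tested. Below the control mean lay 16 (66.7%) in replicate 1 and 12 (50%) in replicate 2, beside 52.4% and 50.5% of all genes tested. NR4A2 and PDE4B differed from the control mean by over 1 on the log2 scale in both libraries.

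**Figure D2:**
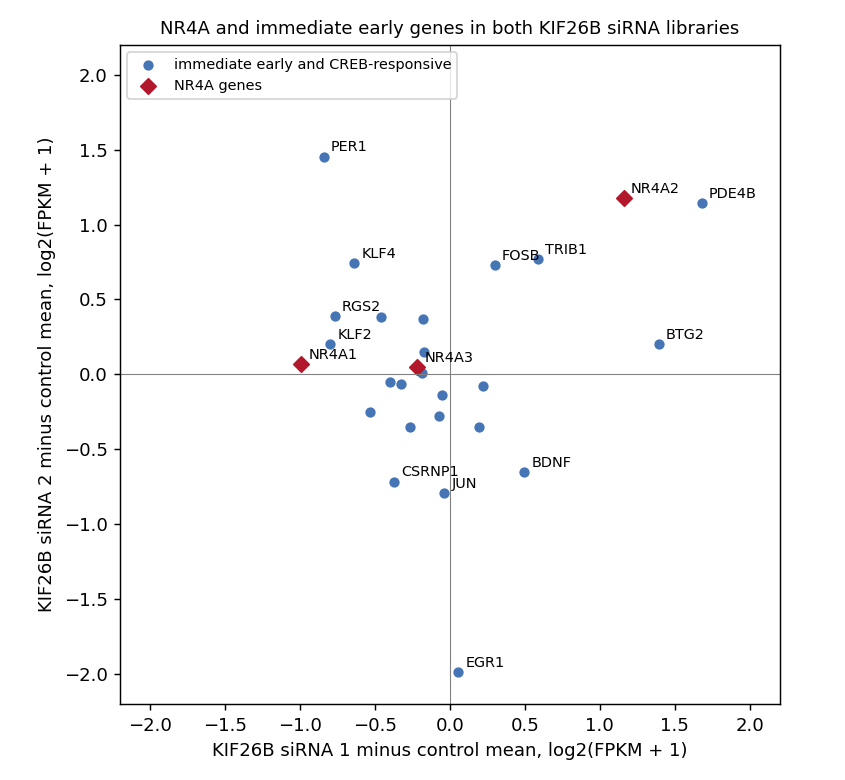
Difference of KIF26B siRNA replicate 1 (horizontal) and replicate 2 (vertical) from the control mean in log2(FPKM + 1), for the NR4A genes (diamonds) and 24 immediate early and CREB-responsive genes (circles). NR4A2, at 1.16 and 1.18, and PDE4B, at 1.68 and 1.14, lay in the upper right corner, whereas NR4A1, PER1 and EGR1 stood apart from the control mean mainly in 1 library or in opposite directions.

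Genes reported as targets of NR4A factors were followed next, whatever the tissue and the direction reported for each. Of 30 genes, 13 were tested, 17 had a mean below 1 FPKM and 6 of these had no reads in any library. By limma, 0 were past the thresholds in either direction, with a median log2 fold change of −0.27. At an unadjusted P below 0.05 alone, 0 were higher and 4 lower, and 9 did not overlap downward against 2 upward. Over all genes tested, 7.74% were higher and 8.68% lower at that P, and 27.8% did not overlap downward against 24.9% upward. The 4 were GCH1, which makes the cofactor of tyrosine hydroxylase, BIRC5 (survivin), TXNDC5 and SLC2A4 (GLUT4), the last pair with log2 fold changes of −0.40 and −0.35 (adjusted p = 0.291 and 0.294 from limma). GCH1 was at 13.4 and 11.8 FPKM with control siRNA, against 8.07 and 8.59 FPKM with KIF26B siRNA (log2 fold change −0.54, adjusted p = 0.248 from limma). BIRC5 was at 33.6 and 34.8 FPKM with control siRNA, against 23.8 and 27.7 FPKM with KIF26B siRNA (−0.40, adjusted p = 0.288 from limma). The dopaminergic targets TH and SLC6A3 had at most 8 reads in any library. IDH1, the other most abundant gene, was at 20.3 to 24.7 FPKM.

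Of 21 partners and cofactors of NR4A proteins, 19 were tested and by limma 0 were past the thresholds in either direction (median log2 fold change −0.06). At an unadjusted P below 0.05 alone, 1 was higher, the partner RXRB described above, and 3 were lower. Of all genes tested, 7.74% were higher and 8.68% lower at that P. KDM1A, the lysine demethylase of the CoREST complex that NR4A2 can recruit, was at 40.2 and 41.9 FPKM with control siRNA, against 27.9 and 28.7 FPKM with KIF26B siRNA (log2 fold change −0.52, adjusted p = 0.242 from limma). TRIM28, a corepressor, was at 152.2 and 140.8 FPKM in the KIF26B siRNA libraries, below both controls, the higher of which was at 207.7 FPKM (−0.48, adjusted p = 0.248 from limma). RXRA was at 5.64 to 7.91 FPKM, overlapping between the groups, and HDAC1 at 54.4 to 68.6 FPKM (adjusted p = 0.89 and 0.569 from limma). BCL2, which NR4A1 can bind at mitochondria, was at 0.127 to 0.390 FPKM.

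Without KIF26B siRNA replicate 1, the median log2 fold change was 0.13 for the other nuclear receptors, −0.22 for the cAMP list, −0.05 for the prostaglandin list, −0.02 for the immediate early list and −0.14 for the reported targets, with the sign each had with both libraries. It turned from −0.07 to 0.10 for the calcium list, and was 0.00 for the partners. In replicate 2 alone, PDE4B differed from the control mean by 1.14 on the log2 scale, RARG by 0.79, NR2F1 by 0.51, TRIB1 by 0.77, GCH1 by −0.50 and KDM1A by −0.50. All of these kept the direction they had with both libraries. For each, both KIF26B siRNA libraries lay on the same side of both controls, so this direction was fixed in advance and is no check.

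The genes most like NR4A2 and NR4A1 over the 4 libraries were found by the Euclidean distance between log2(FPKM + 1) profiles centred on their means, among 11204 other protein-coding genes averaging 1 FPKM or more. For NR4A2 the nearest 5 were PCDH7, a protocadherin (distance 0.107), ALDH3B1, an aldehyde dehydrogenase (0.153), HS3ST1, a heparan sulfate sulfotransferase (0.161), BFSP1, a filament protein of the lens (0.185), and TOMM22, a subunit of the mitochondrial import receptor (0.198). HS3ST1 was at 5.29 and 5.69 FPKM with control siRNA, against 12.3 and 12.8 FPKM with KIF26B siRNA, close to NR4A2 in level as well. PCDH7 was at 2.13 and 1.93 FPKM with control siRNA, against 6.09 and 5.46 FPKM with KIF26B siRNA. These profiles share the groups that set the pattern, and likeness over 4 libraries is a description.

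For NR4A1 the nearest 5 were SAP30, a subunit of a histone deacetylase complex (0.036), STARD4, a sterol carrier (0.097), MYO1D, a myosin (0.102), NPC1, a lysosomal cholesterol transporter (0.103), and RNASE1, a secreted ribonuclease (0.110). SAP30 was at 18.4 and 16.3 FPKM in control, 8.23 FPKM in KIF26B siRNA replicate 1 and 18.8 FPKM in replicate 2. Each of the 5, like NR4A1, was lower in KIF26B siRNA replicate 1 than in every other library, as follows from choosing them by likeness to its profile. NPC1 was at 15.8 and 15.3 FPKM in control, 7.54 FPKM in replicate 1 and 16.5 FPKM in replicate 2.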

How the data were processed

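Poly(A) mRNA of 4 HCT116 libraries was sequenced as paired-end reads. The authors aligned them with HISAT2 2.0.5 and, per the submitters' processing notes, used featureCounts 1.5.0-p3. The Methods name hg19 and the processing notes hg38. The files hold gene identifiers only, so coordinates are those of a GENCODE annotation on GRCh37, which gave 56513 of 58735 identifiers a symbol, and the promoter windows are on GRCh38.p14. The values the authors deposited are FPKM. This unit is not named in the files and was read from the values: for genes with 1 exon, 89.9% to 90.6% of values times the exon length were whole multiples (within 0.02 reads) of 1 step per library.

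The steps gave divisors of 19629581, 24673739, 21363618 and 18068934 fragments for the control pair (replicate 1, then 2) and the KIF26B siRNA pair. Whole reads (within 0.01) were recovered for 34637 of the 34638 genes above 0, with 1 length per gene. Of these lengths, 26.1% equalled the length of all exons in the annotation used here. The recovered reads summed to more than the divisor in every library, with 19611364 against 18068934 in KIF26B siRNA replicate 2. Reads of single genes may therefore be off, and the cause was not tested.

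Group differences were fitted in limma to log2(FPKM + 1) of the 14523 genes averaging 1 FPKM or more, with Benjamini–Hochberg adjustment and no covariates (2 residual and 2 prior degrees of freedom). The count-based test that the Methods name was not run, and limma-voom on the recovered reads was the alternative. The fit was tested on simulated reads with changes larger than the log2 fold change threshold and the same in both KIF26B siRNA libraries. That test does not cover calls near the threshold or libraries that go apart.

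The members and gene lists were chosen with earlier results of these data known. Named genes are the members, up to 4 genes per list past the thresholds, the 2 most abundant of each list in the control libraries, the 5 nearest profiles and the nearest protein-coding neighbours. All other genes, named for their role or their values, were named after their values were seen. A few genes of the lists are counted but not reported here by name. Alternatives were a replicate block, a pseudocount of 0.1, other filters (no filter, or at least 1 FPKM in every library), median-of-ratios scaling, a variance trend, limma-voom on genes with at least 10 reads in 2 libraries, and leaving out each library. R 4.3.3, limma 3.58.1, Python 3.11.15, numpy 2.4.6, pandas 2.3.3, scipy 1.17.1 and matplotlib 3.10.9 were used.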

Additional observations from a re-analysis of the deposited data

How the results depend on the processing

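The log2 difference of NR4A2 was 1.17 and stayed above 1 under each alternative run. It was 1.30 with a pseudocount of 0.1, 1.32 with limma-voom, 1.31 with no pseudocount (chosen after seeing the data) and 1.13 to 1.21 with any library left out. For NR4A1 it ranged from −0.99 to 0.07 with any library left out, turning above 0 without KIF26B siRNA replicate 1. For NR4A3 it was −0.09, against −0.34 with limma-voom and −0.27 with no pseudocount, and −0.22 to 0.05 with any library left out. Of all genes, 118 were past the thresholds upward and 88 downward. These counts were 217 and 203 with a pseudocount of 0.1, 69 and 52 with at least 1 FPKM in every library, and 361 and 381 with limma-voom. With 1 library left out, 155 to 333 were higher and 132 to 230 lower. With the replicate block they were 135 and 98, and the counts of the lists did not change. Same-numbered libraries did not deviate together (correlation of deviations −0.00314 across genes). Each group gives a single gap between its libraries, and that of the KIF26B siRNA libraries may hold a difference between siRNAs. Whether the numbers pair the libraries therefore cannot be settled by this value. Of the 193 genes of the 7 lists, 132 were tested in the main fit. Past the thresholds, 1 of these was upward and 0 downward, beside 0.813% and 0.606% of all genes tested. With any library left out, 1 to 6 were higher and 0 to 2 lower, and with limma-voom 3 were lower, namely CAMK4, HDAC9 and HNF4G. PDE4B was past the thresholds upward in each fit run. Without KIF26B siRNA replicate 1, 6 list genes were past them upward (among them ENO3, NFATC4, PDE4B, PER1 and RXRB) and 2 downward (CXCL8 and EGR1), and 2254 of all genes had an adjusted p below 0.05 in limma, the lone KIF26B siRNA library being assumed to vary like the controls. No other fit gave any. Without KIF26B siRNA replicate 2, 3 were higher (BTG2, NR2F1 and PDE4B). The causes of these moves were not tested. With a pseudocount of 0.1, 4 of the 5 nearest profiles of NR4A2 and 3 of the 5 of NR4A1 were shared. NR4A3 rests on 39 to 99 reads per library, and its control libraries differed by more than counting error.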

Other observations

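Of the 5 keratin genes on chromosome 12 averaging 1 FPKM or more, all downstream of NR4A1, 3 were lowest in KIF26B siRNA replicate 1, as NR4A1 was, and 2, KRT8 and KRT18, were lowest in replicate 2. Of all genes tested, 31.4% were lowest in replicate 1 and 31.5% in replicate 2. The keratin genes were looked up after their values were seen. KRT8 was at 368.5 and KRT18 at 174.9 FPKM in replicate 1, against 350.1 and 167.5 FPKM in replicate 2. KRT80, 109 kb after the end of NR4A1, was at 3.79 and 3.74 FPKM in the control libraries, 0.721 FPKM in KIF26B siRNA replicate 1 and 2.60 FPKM in replicate 2. KRT7, 173 kb after it, was at 14.4 and 14.5 FPKM in control, 3.45 FPKM in replicate 1 and 21.0 FPKM in replicate 2. KRT81, 226 kb after it, was at 3.75 and 3.82 FPKM in control, 0.461 FPKM (19 reads) in replicate 1 and 3.76 FPKM in replicate 2. KRT81 is one of several hair keratins of closely similar sequence, and its value is uncertain where reads were shared among them. ATG101, which lies between NR4A1 and these genes, was at 10.3 FPKM in replicate 1 against 9.76 and 11.2 FPKM in control. No test of position was made.

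The clock receptors NR1D1 and NR1D2, which are in the list of other nuclear receptors, went the way of PER1. NR1D1 was at 19.9 and 19.7 FPKM in control, 17.7 FPKM in KIF26B siRNA replicate 1 and 30.9 FPKM in replicate 2. NR1D2 was at 11.2 and 10.1 FPKM in control, 7.99 FPKM in replicate 1 and 18.4 FPKM in replicate 2.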
